A study of Rattus norvegicus with 10 samples.

Results

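The genes described here encode the enzymes, carriers and membrane proteins that break down fatty acids in mitochondria and peroxisomes, measured in the white adipose tissue of 10 male rats aged 13 weeks. They were chosen by name, with earlier results of these data known. Of 33 listed genes, 32 had at least 1 probe set on the array that the platform annotation gives to that gene alone, which made 43 of the 31042 probe sets tested and 32 of the 14217 genes. Acaa1a, the peroxisomal thiolase, was read only by a probe set shared with Acaa1b and is not described, and a second shared probe set, of Eci2 and Eci3, was left out. In the noodle group, 5 rats ate for 30 days (4 weeks in another label) a diet in which instant noodle made up 30% of the weight and fat gave 26% of the energy. In the control group, 5 rats were given that diet without its seasonings, and whether it held the noodle is not given in the sources used here. Feeding was paired, with roughly 60 g of food a day for each kg an animal weighed, and which animals formed a pair is not given. Each rat is 1 sample and 1 array, named here by its diet and its number in the labels.

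Fatty acids enter mitochondria as carnitine esters and are then shortened by cycles of dehydrogenation, hydration, a second dehydrogenation and thiolysis, with flavoproteins passing the electrons to the respiratory chain. Peroxisomes shorten very long and branched chains by a parallel set of enzymes, and hand the products over for further oxidation. White fat mainly stores and releases fatty acids, whereas brown and beige adipocytes burn them for heat, and many of these genes are known targets of peroxisome proliferator-activated receptors. By textbook location, 18 of the measured genes were counted as mitochondrial, 11 as peroxisomal and 3 (Eci2, Ech1 and Crat) as present in both organelles.

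The values are the authors' deposited levels, taken as log2, so that a difference of 1 is a doubling. Most of the table hardly varies, as 91.6% of all probe sets had an SD over the 10 arrays of 0.01 or less. Such probe sets are called flat and the others variable, and the reason for the flatness is not given in the sources used here. Among the members, 22 probe sets were variable and 21 were flat. There was a wide gap among them at the threshold, with the most variable flat probe set, that of Acadm, at an SD of 0.00187 and the least variable one above it, that of Echs1, at 0.0493. Outside the members some genes named below lay in that gap and just count as variable. Acot2, Abcd4, Esrrg and Cd36 had SDs of 0.0108, 0.0150, 0.0228 and 0.0264. Where a gene had several probe sets, the one with the highest mean stood for it. On that basis 20 of the 32 genes were variable, against 11.5% of all genes, with 13 mitochondrial, 6 peroxisomal and 1 in both. The 17 measured adipocyte markers all lay above the array median, with a mean of 11.8, and 2 of the 13 brain markers did, which was checked because one protocol field in the labels speaks of brain. Array medians lay between 6.17 and 6.18, and the arrays' mean correlations with each other lay between 0.995 and 0.997. Since the tissue is a mixture of cells, fewer cells of a type and less RNA per cell cannot be told apart. A level is not compared between genes, because probe sets differ in how strongly they bind.

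Hadha and Hadhb encode the alpha and beta subunits of the mitochondrial trifunctional protein, and lie head to head in the rat genome. Their RefSeq start windows (build GRCr8, 250 bases before to 50 after each start, at chr6:31907551-31907850 on the plus strand and chr6:31907451-31907750 on the minus strand) share 200 bases, with the starts 301 bases apart. They are shown because these subunits are 1 of the 3 partner pairs in which both genes were variable. Cpt1a (chr1:209995910-209996209, plus strand) is shown because it ran against the other variable members. Capitals mark exact matches on either strand to 3 short motifs. The GC box reads GGGCGG. The CCAAT box is spelled by its name. The half-site bound by nuclear receptors reads AGGTCA. The windows were also searched for the E-box, which reads CACGTG, for the NRF1 site, and for a direct repeat and an extended form of the half-site, which overlap it.
Hadha: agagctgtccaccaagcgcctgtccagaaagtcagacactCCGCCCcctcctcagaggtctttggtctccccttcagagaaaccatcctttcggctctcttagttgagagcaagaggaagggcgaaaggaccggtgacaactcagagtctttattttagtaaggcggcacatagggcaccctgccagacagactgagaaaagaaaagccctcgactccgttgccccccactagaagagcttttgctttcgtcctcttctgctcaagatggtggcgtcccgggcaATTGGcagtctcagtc
Hadhb: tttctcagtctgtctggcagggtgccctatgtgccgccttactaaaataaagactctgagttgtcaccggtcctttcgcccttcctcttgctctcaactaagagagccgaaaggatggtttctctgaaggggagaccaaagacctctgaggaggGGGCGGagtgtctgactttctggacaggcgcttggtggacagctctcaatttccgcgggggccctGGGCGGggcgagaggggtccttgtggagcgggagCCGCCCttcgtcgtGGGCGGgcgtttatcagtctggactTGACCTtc
Cpt1a: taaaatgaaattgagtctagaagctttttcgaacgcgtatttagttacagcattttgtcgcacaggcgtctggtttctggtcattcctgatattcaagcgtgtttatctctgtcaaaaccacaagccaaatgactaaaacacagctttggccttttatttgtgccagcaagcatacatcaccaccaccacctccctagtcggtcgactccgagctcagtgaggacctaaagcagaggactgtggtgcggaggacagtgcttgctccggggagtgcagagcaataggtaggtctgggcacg
Of the 32 members, 27 were matched in the promoter table. Cpt1b, Acadl, Acaa2, Decr1 and Ech1 have no entry. A GC box was present in 23 of the 27 windows, against 33.1% of all 33469 windows of 300 bases. Hadha had 1 and Hadhb 4 of them, and the GC box of Hadha is the same stretch as the first one of Hadhb, read from the other strand. The Cpt1a window held none of the motifs searched. The half-site AGGTCA was found in 8 of 27 member windows and in 16.2% of all, and 0 of 27 held 2 such half-sites as a direct repeat with a 1-base gap (0.0538% of all windows), the extended half-site of estrogen-related receptors (0.433% of all), the NRF1 site (0.852% of all) or the E-box (6.42% of all). A CCAAT box was found in 9 of 27 and in 37.5% of all. These are matches of letters in a short window and were not tested for binding.

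No fatty acid oxidation gene passed the threshold between the diets. Over all 31042 probe sets, limma with Benjamini-Hochberg adjustment called 0 (0%) at an adjusted p of 0.05, and 0 of the 43 member probe sets passed, with the lowest adjusted p among them at 0.993. At an unadjusted p under 0.05 there were 3 member probe sets, all flat, where 4.77% of all probe sets reached that level. Of the 20 variable members, 0 did so, against 7.66% of the 1632 variable genes. In direction, the noodle mean was the higher one in 12 of the 20 and the lower one in 8, with 44.5% of variable genes higher. The median difference was 0.02 log2 units in the 13 mitochondrial genes and 0.004 in the 6 peroxisomal genes, against -0.01 over all variable genes. Groups overlapped in 20 of 20 variable members, and 0.98% of the variable genes had groups that did not. One measure of RNA quality differed between the diets. The actin and GAPDH controls read higher at the 3-prime than at the 5-prime end by 0.753 to 0.926 in noodle arrays and by 0.823 to 1.06 in control arrays, and 4 of 5 control arrays lay above every noodle array. With that measure as a covariate, 6 member differences changed sign. In some marker lists of other cells most variable genes differed in 1 direction, although by limma 0 of their genes passed the adjusted threshold. At an unadjusted p under 0.05 there were 0 macrophage, 1 mesothelial and 1 red blood cell marker. Of 13 variable macrophage markers 12 were higher in the noodle group (median difference 0.16), where 44.5% of all variable genes were. Of 8 variable mesothelial markers 8 were lower (median -0.30), as were 3 of 3 variable red blood cell markers (median -0.21). Markers of 1 cell type are not independent, and the mean levels of these lists overlapped between the diets. They were 8.36 to 8.81 (noodle) and 8.23 to 8.76 (control) for macrophage, and 6.23 to 7.05 and 6.16 to 7.67 for mesothelial markers. For red blood cell markers they were 7.55 to 7.77 and 7.67 to 7.94. The part of these measures in the diet differences of the members was not tested beyond that covariate.

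**Figure D1:**
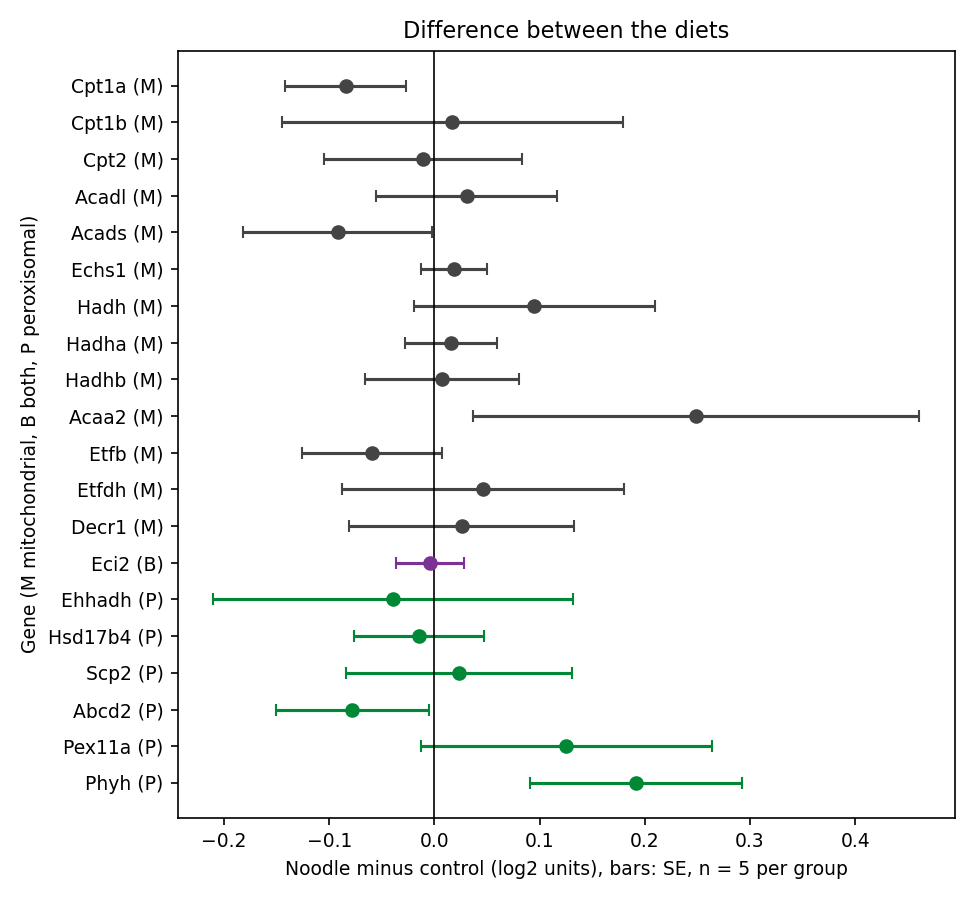
The plot gives, for each of the 20 variable genes, the noodle minus control difference in log2 units on the horizontal axis, with bars for the SE (n = 5 per group). Differences run from -0.09 for Acads to 0.25 for Acaa2, and none passed the threshold.

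The carnitine shuttle carries long fatty acids across the mitochondrial membranes. Cpt1a and Cpt1b encode alternative forms of its first and rate-limiting enzyme, Cpt1a the form best known from liver and Cpt1b that of muscle and brown fat. Cpt1a stood at 7.95, 8.17, 8.04, 8.01 and 7.88 in noodle animals 1, 4, 7, 10 and 13, and at 8.11, 7.97, 8.09, 8.09 and 8.19 in control animals 2, 5, 8, 11 and 14. Noodle animals 1 and 13 lay below every control, and the other 3 within the control range, giving a difference of -0.08 ± 0.06 (SE, n = 5 per group), which was -0.05 when noodle animal 13 was dropped. Cpt1b stood at 7.55, 7.37, 7.50, 7.90 and 7.91 in the same noodle animals and at 7.82, 7.97, 7.67, 7.33 and 7.36 in the same controls. Each diet held both high and low animals for Cpt1b, and the difference was 0.02 ± 0.16. Cpt2, the inner membrane enzyme that returns the acyl group to coenzyme A, averaged 8.05 ± 0.14 (SD, n = 5) in noodle animals and 8.06 ± 0.16 in controls. Slc25a20, the carnitine-acylcarnitine carrier, was flat at 7.85, as was the second, dimmer probe set of Cpt1a at 6.73.

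The acyl-CoA dehydrogenases take the first electrons from the chain, each at its own range of chain lengths. Acads, for short chains, stood at 8.13, 7.95, 8.01, 8.19 and 8.10 in noodle animals 1, 4, 7, 10 and 13, and at 8.08, 8.50, 8.08, 8.09 and 8.10 in control animals 2, 5, 8, 11 and 14. Control animal 5 lay far above the other 4 controls, which were within 8.08 to 8.10. The difference of -0.09 ± 0.09 came to -0.009 without that animal and to -0.06 when noodle animal 4 was dropped. Acadl, for long chains, averaged 9.89 ± 0.11 in noodle animals and 9.86 ± 0.16 in controls. Acadm and Acadvl, for medium and very long chains, were flat at 9.36 and 8.66.

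The hydratase, the hydroxyacyl-CoA dehydrogenases and the thiolases complete each cycle. Acaa2, the mitochondrial thiolase, had the widest spread of the 20 genes, with an SD of 0.352 over all animals. It stood at 9.94, 9.68, 9.80, 10.16 and 9.98 in noodle animals 1, 4, 7, 10 and 13, and at 9.07, 10.27, 9.92, 9.49 and 9.55 in control animals 2, 5, 8, 11 and 14. The controls held both the lowest and the highest animal, with an SD of 0.45 against 0.18 in the noodle group. The difference was 0.25 ± 0.21, or 1.19-fold, and moved to 0.10 without control animal 2 and to 0.40 without control animal 5. Its second variable probe set differed by 0.13 ± 0.14, and over the 10 animals both sets ran together (r = 0.784, rho = 0.673, permutation p = 0.00711 and 0.04, adjusted p = 0.00711 and 0.0498 over 2 genes with such a second set, r = 0.637 without the 2 farthest animals).

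Hadh, the dehydrogenase for short and medium chains, stood at 10.76, 10.49, 10.73, 10.89 and 10.82 in noodle animals 1, 4, 7, 10 and 13, and at 10.47, 10.96, 10.67, 10.69 and 10.42 in control animals 2, 5, 8, 11 and 14. The noodle animals all lay within the control range, and the difference was 0.09 ± 0.11. It ranged from 0.04 without control animal 14 to 0.17 without control animal 5, and also moved by over 1.5 times without control animal 2 (0.05), noodle animal 10 (0.06) or noodle animal 4 (0.16). Echs1, the short-chain hydratase, had the narrowest spread of the 20 genes. It stood at 10.24, 10.13, 10.23, 10.23 and 10.27 in the same noodle animals and at 10.12, 10.26, 10.19, 10.21 and 10.23 in the same controls. Noodle animal 4 and control animal 2 were the lowest of their diets, and the difference was 0.02 ± 0.03. Hadha averaged 10.11 ± 0.07 and 10.10 ± 0.07 in the noodle and control groups, and Hadhb 10.84 ± 0.12 in both. The other probe sets of Hadh and Hadha, 1 and 2 in number, were dim and flat at 5.52 to 6.11.

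The electron transfer flavoprotein, a dimer of the Etfa and Etfb products, collects electrons from the dehydrogenases and passes them to the Etfdh product. Etfb stood at 10.10, 10.04, 9.97, 10.24 and 10.13 in noodle animals 1, 4, 7, 10 and 13, and at 10.03, 10.33, 10.20, 10.09 and 10.13 in control animals 2, 5, 8, 11 and 14. The groups overlapped, with a difference of -0.06 ± 0.07. Leaving out control animal 5 gave -0.02 and leaving out noodle animal 7 gave -0.03, while dropping control animal 2 or noodle animal 10 gave -0.09. Etfdh averaged 8.69 ± 0.21 and 8.65 ± 0.22 in the noodle and control groups, and Etfa was flat at 10.4. Of the auxiliary enzymes that deal with double bonds, Decr1 averaged 10.95 ± 0.19 and 10.93 ± 0.15, and Eci2, which is found in both organelles, 9.05 ± 0.05 in both groups. Eci1 was flat at 9.27, Ech1 at 10.7 and the carnitine acetyltransferase gene Crat at 8.19.

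In the peroxisome, Phyh encodes the hydroxylase that starts the breakdown of branched phytanic acid. It had the smallest p of the 20 variable members (limma unadjusted p = 0.0907, adjusted p = 0.993). Phyh stood at 11.03, 10.78, 11.03, 11.24 and 11.27 in noodle animals 1, 4, 7, 10 and 13, and at 10.79, 10.95, 10.93, 10.71 and 11.01 in control animals 2, 5, 8, 11 and 14. In 4 of 5 noodle rats it lay above every control, and noodle animal 4 lay among the lower controls. The difference was 0.19 ± 0.10, or 1.14-fold, and it stayed between 0.14 and 0.26 when single animals were left out, but was 0.10 when both probe sets were averaged. The other probe set of Phyh had nearly the same level, 10.97, and was flat.

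Transport and division of the organelle were covered by Abcd2 and Abcd3, which encode half-transporters that bring fatty acyl groups into peroxisomes, and Pex11a, which takes part in their multiplication. Abcd2 stood at 9.31, 9.32, 9.45, 9.54 and 9.34 in noodle animals 1, 4, 7, 10 and 13, and at 9.43, 9.68, 9.52, 9.36 and 9.36 in control animals 2, 5, 8, 11 and 14. Noodle animals 1, 4 and 13 lay below every control, and the difference was -0.08 ± 0.07, or -0.02 without control animal 5. Pex11a stood at 9.04, 9.01, 9.18, 9.25 and 9.16 in the same noodle animals and at 9.09, 9.29, 9.03, 9.10 and 8.48 in the same controls. Control animal 14 was the lowest, and without it the difference of 0.13 ± 0.14 became -0.003. Abcd3 was flat, and it was the 1 member whose groups did not overlap, all 5 noodle rats lying lower by 0.0002 log2 units, a size that has no reading on this scale. The share of all flat probe sets with such groups was not counted.

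Hsd17b4 and Ehhadh encode the multifunctional enzymes that do the middle steps in peroxisomes, and Scp2 a thiolase and sterol carrier. Hsd17b4 stood at 9.87, 9.69, 9.79, 9.84 and 9.84 in noodle animals 1, 4, 7, 10 and 13, and at 9.68, 9.93, 9.88, 9.69 and 9.93 in control animals 2, 5, 8, 11 and 14. All noodle animals lay within the control range, with a difference of -0.01 ± 0.06. Ehhadh averaged 6.71 ± 0.09 in noodle animals and 6.75 ± 0.38 in controls, where control animal 5 stood at 7.37 against 6.43 to 6.82 in the other 4. Scp2 averaged 11.61 ± 0.16 and 11.59 ± 0.19, and its second variable probe set ran with the first (r = 0.906, rho = 0.648, permutation p = 0.00066 and 0.0498, adjusted p = 0.00132 and 0.0498 over the 2 genes, r = 0.696 without the 2 farthest animals). The oxidase gene Acox3 was flat at 6.16, Acot8, a thioesterase, at 7.02, Decr2 at 6.82 and the carnitine octanoyltransferase gene Crot, with 3 flat probe sets, at 8.61 on the brightest.

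**Figure D2:**
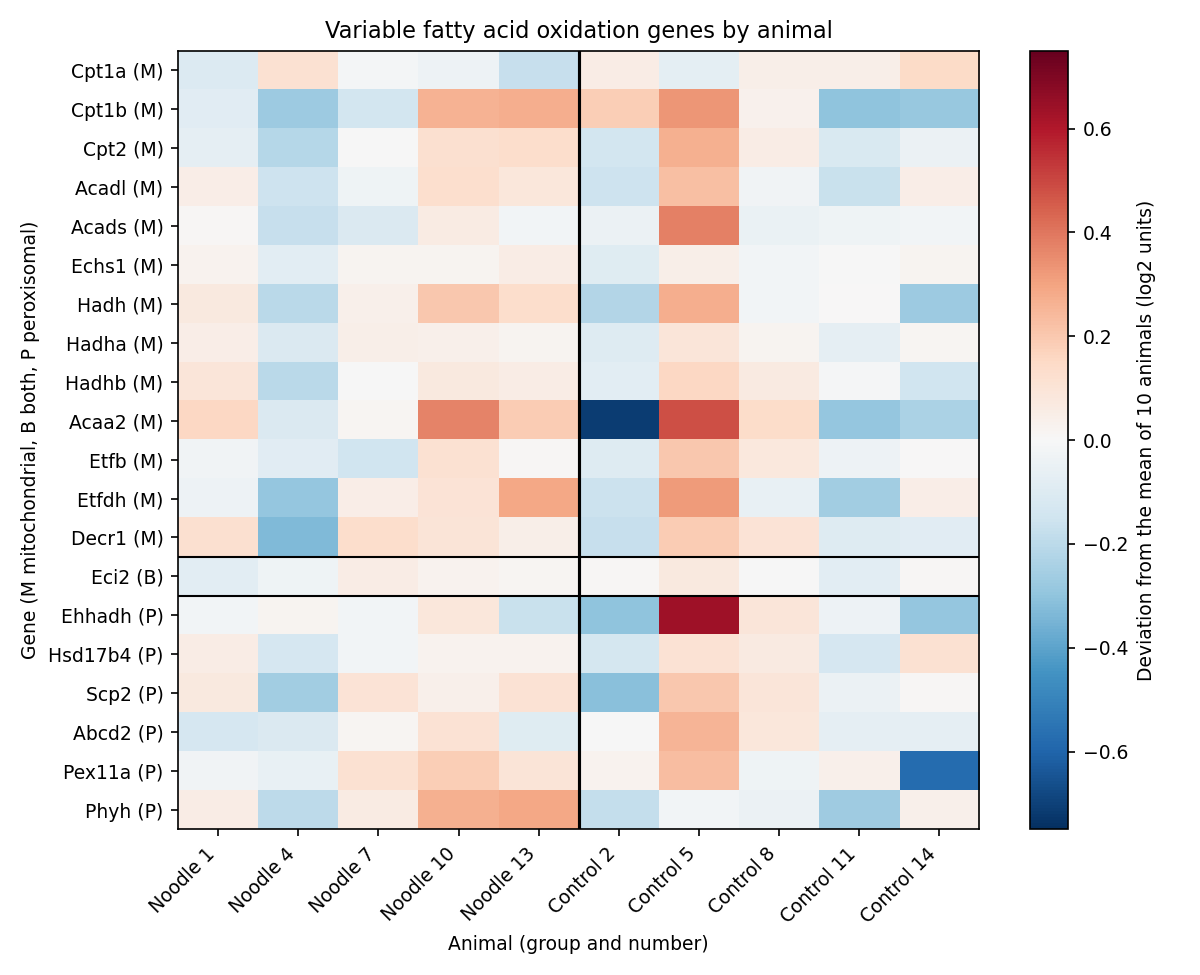
The map shows each variable gene (rows, with M for mitochondrial, B for both and P for peroxisomal) in each animal (columns), as the deviation in log2 units from the gene's mean over 10 animals. Control animal 5 is above the mean in 18 of 20 rows and noodle animal 4 in 2; both diets hold high and low animals.

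Single animals were high or low in most members at once, and both diets held high and low animals. Control animal 5 had the highest level of all 10 rats in 16 of the 20 variable genes, where it was the highest in 15.9% of all variable genes. Noodle animal 4 was the lowest in 6 members (10.8% of variable genes), control animal 2 in 5 (11.5%) and control animal 11 in 4 (8.27%). Noodle animal 10 lay above the mean in 19 members, though in 43.75% of all variable genes, and noodle animal 4 in 2 members, though in 54.3%. Control animal 14, the array least like the others, lay above the mean in 10 of 20 members and in 65.1% of all variable genes.

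Pairs of members varied together over the animals. The median Pearson correlation over the 190 pairs of variable members was 0.605, against 0.042 over all 1330896 pairs of the 1632 variable genes. Correlations were above 0 in 89.5% of member pairs and 53.5% of all pairs, and at or above 0.6 in 51.1% and 9.22%. By permutation with Benjamini-Hochberg adjustment over the 190 pairs, 39 (20.5%) passed by Pearson's r, 34 by Spearman's rho and 25 by both. Several of the passes by rho had an adjusted p that rounds to 0.05, so the counts by rho and by both rest on a narrow margin. With diet means removed, the median was 0.654 and 36 pairs passed in an exact permutation within diets. The median was 0.678 over the noodle animals alone and 0.701 over the controls alone, with 5 animals each. The number of pairs that passed rested on single animals. Leaving out control animal 5 took it to 3, and leaving out control animal 2 took it to 19. It came to 12 when noodle animal 10 was dropped and to 16 when noodle animal 4 was. Dropping control animal 14 raised it to 70. The median correlation was 0.495 without control animal 5. Without both control animal 5 and noodle animal 4 it was 0.397, against 0.057 over all pairs of variable genes in the same 8 animals, and 2 pairs passed.

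**Figure D3:**
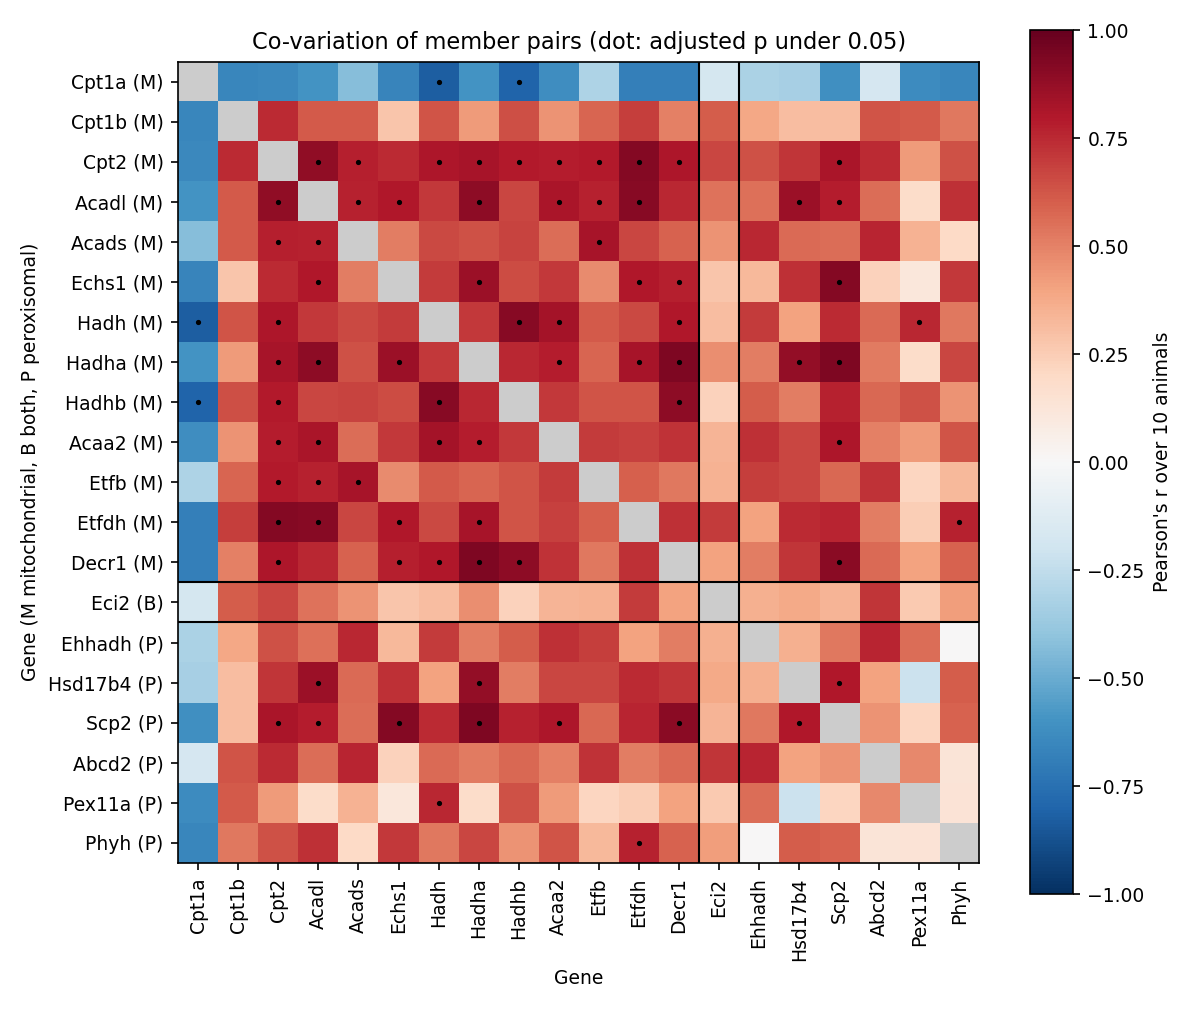
The grid shows Pearson's r over 10 animals for each of the 190 pairs of variable genes (colour), with a dot where the permutation p passed after adjustment over the pairs. Cpt1a is below 0 with 19 of 19 other genes, and 170 of the 171 pairs without it are above 0.

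The 5 closest pairs joined mitochondrial enzymes with each other or with the peroxisomal Scp2. Hadha and Decr1 had the highest correlation (r = 0.935, permutation p = 1e-05, the smallest that 100000 resamples can give, adjusted p = 0.0019; rho = 0.952, permutation p = 0.00015, adjusted p = 0.0285), and without the 2 animals farthest from the median it was 0.846. Hadha and Scp2 followed (r = 0.93, permutation adjusted p = 0.0114; rho = 0.83, permutation adjusted p = 0.0493; r = 0.848 without 2 animals). Echs1 and Scp2 reached r = 0.916 (permutation adjusted p = 0.0282; rho = 0.806, permutation adjusted p = 0.05), but 0.515 without noodle animal 4 and control animal 2. Cpt2 and Etfdh reached r = 0.915 (permutation adjusted p = 0.0114; rho = 0.915, permutation adjusted p = 0.0412; r = 0.834 without 2 animals). Acadl and Etfdh reached r = 0.909 (permutation adjusted p = 0.0138; rho = 0.867, permutation adjusted p = 0.0493; r = 0.833 without 2 animals). Cpt2 took part in 10 of the pairs that passed and Acadl in 9, more than any other member, while Cpt1b, Eci2, Ehhadh and Abcd2 took part in 0.

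The partner subunits Hadha and Hadhb, whose start windows are printed above, correlated at r = 0.756 (permutation p = 0.0122, adjusted p = 0.0525; rho = 0.879, permutation p = 0.00162, adjusted p = 0.0448), and at 0.502 without noodle animal 4 and control animal 2. This pair passed by rank and not by value, and its r was lower than that of Hadha with Decr1 or of Hadhb with Hadh (r = 0.908), differences that were not tested. The peroxisomal enzymes Ehhadh and Hsd17b4, which catalyse the same steps on different substrates, correlated at r = 0.359 (permutation p = 0.325, adjusted p = 0.384; rho = 0.358, permutation p = 0.31, adjusted p = 0.364) and at -0.343 without control animals 5 and 2.

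Mitochondrial and peroxisomal genes moved together between animals. With each gene scaled to an SD of 1, the mean of the 13 mitochondrial genes and that of the 6 peroxisomal genes correlated at r = 0.97 and rho = 0.964 over the 10 animals, given as a description since the members were chosen as a set. Without control animal 5 and noodle animal 4, the 2 farthest, it was 0.947 on the values scaled over 10 animals and 0.908 with genes scaled anew over the remaining 8. It was 0.973 with diet means removed, 0.963 in noodle animals and 0.987 in controls. The scaled means in control animal 5 were 1.37 and 1.30, in noodle animal 10 they were 0.68 and 0.67, in control animal 2 they were -0.85 and -0.88, and in noodle animal 4 they were -1.10 and -0.83. This ordering was not particular to the members. The scaled mean of other oxidation and peroxisome genes, a list described below, was 1.03, 0.39, -0.70 and -1.05 in those animals. In noodle animal 7 the signs differed, with -0.06 for the mitochondrial mean and 0.29 for that list. The median pair correlation was 0.689 among mitochondrial genes, 0.571 between a mitochondrial and a peroxisomal gene and 0.447 among peroxisomal genes, and 28 of 78, 10 of 78 and 1 of 15 such pairs passed. Of the pairs that passed, Scp2 took part in 7, of which 6 were with mitochondrial genes, and Pex11a had a median r of 0.259 with the other members and passed with 1 of them, Hadh (r = 0.753, permutation adjusted p = 0.0258; rho = 0.842, permutation adjusted p = 0.0493; r = 0.673 without 2 animals). That call was lost within diets (r = 0.732, exact permutation adjusted p = 0.0887).

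**Figure D4:**
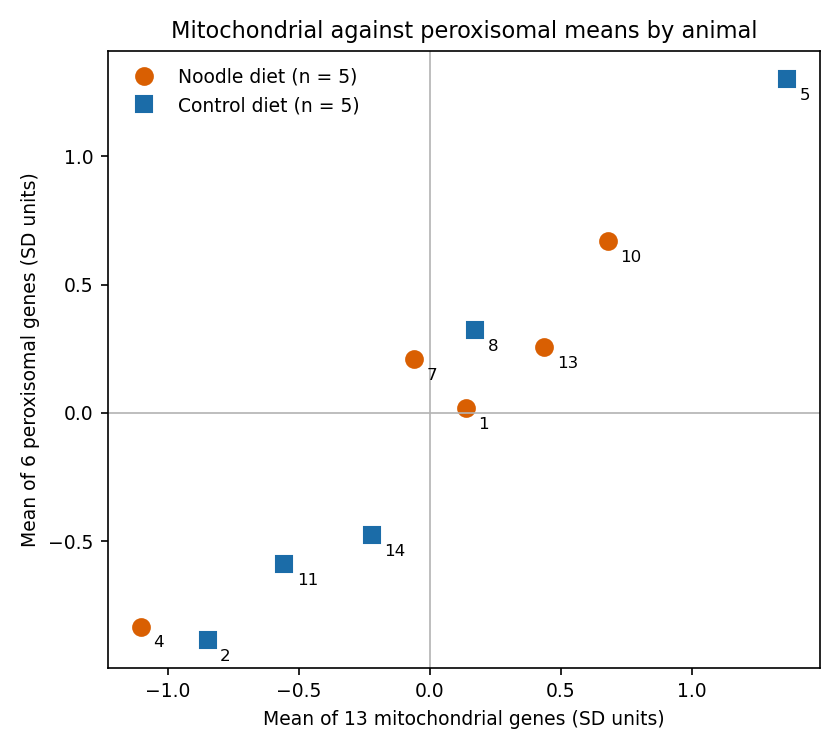
Each point is 1 animal, with the mean of the 13 variable mitochondrial genes on the horizontal axis and that of the 6 variable peroxisomal genes on the vertical axis, both in SD units. The points follow 1 line (r = 0.97) on which noodle and control animals are interspersed, with control animal 5 at the top and noodle animal 4 and control animal 2 at the bottom.

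Levels of other cell types and of RNA quality are given for the same animals. Endothelial markers (9 of 10 measured, 6 of them variable) had a mean level of 8.45 in noodle animal 4, 8.41 in control animal 2 and 8.36 in control animal 11, the 3 animals with the lowest mitochondrial means, and of 8.19 to 8.27 in the other 7. Macrophage markers (14 of 14 measured) ranged from 8.36 to 8.81 in the noodle group and from 8.23 to 8.76 in the controls, and mesothelial markers (8 of 10) from 6.23 to 7.05 and from 6.16 to 7.67. Adipocyte markers (17 of 18) ranged from 11.79 to 11.86 and from 11.81 to 11.84, but 8 of the 17 were flat, among them Adipoq, Plin1 and Fabp4, and could not move the mean. Of the 9 variable ones, Pparg ran from 8.98 to 10.11 and Lep from 8.72 to 9.76. The 3-prime excess of the actin and GAPDH controls was 1.06 log2 units in control animal 5, the highest of the 10 arrays, 0.93 in noodle animal 10, 0.89 in noodle animal 4 and 0.96 in control animal 2. The part of these measures in the shared variation of the members was not tested.

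Cpt1a ran against the other variable members. Its correlation was below 0 with all 19 of them, with a median r of -0.618. These 19 values are not independent, since 170 of the 171 pairs without Cpt1a were above 0. The share of all variable genes that ran against the members in this way was not counted. Of the 19 pairs, 2 passed. These were Cpt1a with Hadh (r = -0.823, permutation adjusted p = 0.0323; rho = -0.879, permutation adjusted p = 0.0448; r = -0.826 without 2 animals) and with Hadhb (r = -0.798, permutation adjusted p = 0.0345; rho = -0.83, permutation adjusted p = 0.0493; r = -0.853 without 2 animals). The next lowest, with Decr1, Etfdh and Echs1, had r = -0.686, -0.681 and -0.664 and rho = -0.661, -0.673 and -0.842, and permutation adjusted p = 0.072, 0.0755 and 0.0822 for r and 0.0997, 0.0988 and 0.0493 for rho. It stayed below 0 with 18 or 19 of the 19 members when single animals were left out, and with 17 in noodle animals and 18 in controls alone. Cpt1a and Cpt1b correlated at r = -0.651 (permutation p = 0.0441, adjusted p = 0.0908; rho = -0.673, permutation p = 0.0386, adjusted p = 0.0988), and at -0.46 without noodle animal 13 and control animal 14. Its flat second probe set gives no second reading.

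Cpt1b followed the 3 variable brown adipocyte markers. Over the 10 animals its correlation with the mean of the 3 variable markers of brown and beige adipocytes was r = 0.933 (permutation p = 0.00016, adjusted p = 0.00224 over 14 relations of Cpt1a and Cpt1b with 7 marker lists; rho = 0.952, permutation p = 0.00011, adjusted p = 0.00154), and it was 0.912 without control animal 5 and noodle animal 13. It was 0.92 to 0.959 without single animals and 0.946 with diet means removed. The members and lists were chosen with earlier results of these data known. Of the members, only Cpt1a and Cpt1b were set against the lists, so whether the relation is particular to Cpt1b was not tested. The p-values of Cpt1b with these markers are therefore given as a description. Cox8b, a cytochrome oxidase subunit of brown fat and muscle, stood at 6.98, 6.72 and 6.72 in noodle animals 10 and 13 and control animal 5, where Cpt1b was 7.90, 7.91 and 7.97. Those 3 animals also had the highest scaled mitochondrial means, at 0.68, 0.44 and 1.37, in which Cpt1b is 1 of the 13 genes. Control animal 2 went the other way, with a mitochondrial mean of -0.85 and Cpt1b at 7.82. In noodle animal 4 and control animals 11 and 14, where Cpt1b was 7.37, 7.33 and 7.36, Cox8b stood at 5.40, 5.45 and 5.47. Ucp1, the uncoupling protein of brown fat, stood at 6.73, 6.43 and 6.40 in the first 3 animals and at 5.95, 5.45 and 5.61 in the last 3. In noodle animals 1 and 7 and control animals 2 and 8, Cpt1b was 7.55, 7.50, 7.82 and 7.67. There Cox8b stood at 5.78, 5.55, 6.08 and 5.68, and Ucp1 at 5.69, 5.50, 5.85 and 5.55, all below noodle animal 4 for Ucp1. Over the 10 animals Ucp1 and Cox8b averaged 5.91 and 5.98, below the array medians of 6.17 to 6.18, and Cidea averaged 10.01. Of the 3 markers singly, Cox8b had r = 0.926 and rho = 0.915 with Cpt1b (permutation adjusted p = 0.00036 and 0.00195 over the 3), Cidea r = 0.869 and rho = 0.806 (0.00424 and 0.0107) and Ucp1 r = 0.778 and rho = 0.745 (0.0104 and 0.0171), and without the 2 farthest animals r was 0.877, 0.934 and 0.651.

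The other 6 of the 9 measured brown and beige markers, among them Ppargc1a, Dio2 and Prdm16, were flat, and 1 of the 9 lay above the array median. Summed as a mean level, the list ranged from 6.10 to 6.44 in the noodle group and from 6.08 to 6.35 in the controls. The skeletal muscle list, looked at because muscle expresses Cpt1b, had 1 variable gene of 13 measured (Myh1) and a mean of 6.13 to 6.17 over all animals. Its other genes were flat and could not move that mean, and the list was not among the 14 relations. The part of muscle in the Cpt1b levels was not tested. None of the other 13 relations in that family passed, with the next smallest adjusted p at 0.188 by r, for Cpt1a with the brown list (r = -0.659, rho = -0.648, permutation p = 0.0403 and 0.0478, r = -0.478 without 2 animals) and Cpt1b with the adipocyte list (r = 0.675, rho = 0.539, permutation p = 0.032 and 0.112, r = 0.762 without 2 animals).

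**Figure D5:**
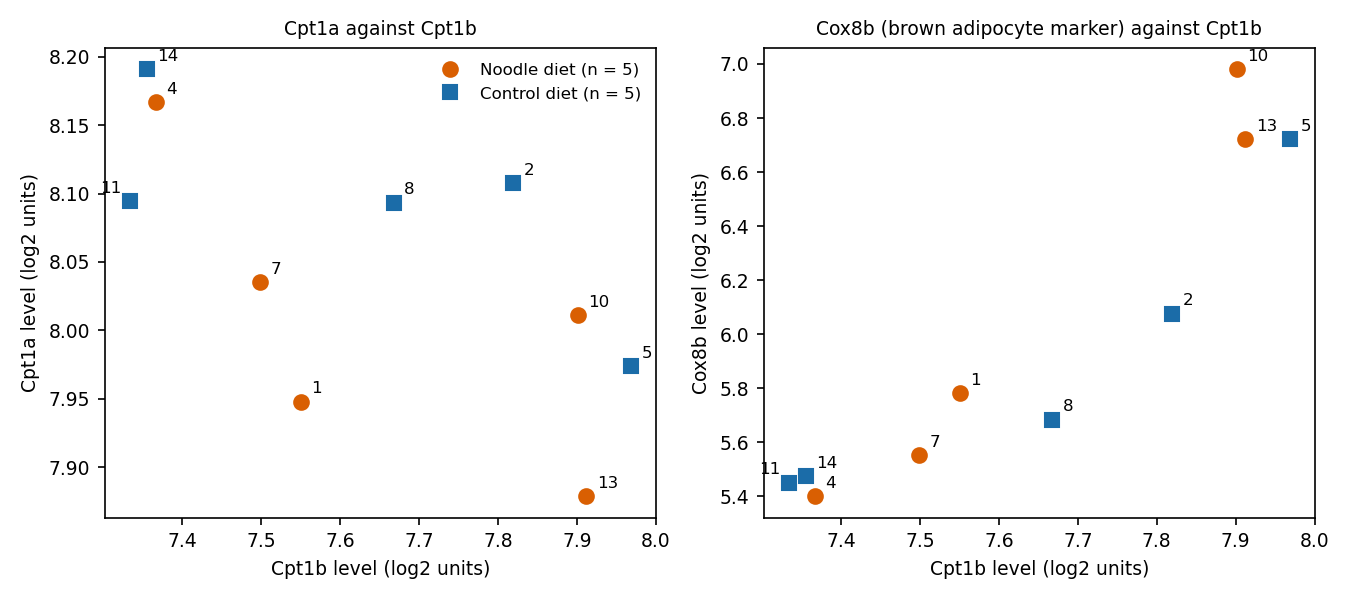
Both panels have the Cpt1b level on the horizontal axis, with Cpt1a (left) and Cox8b (right) on the vertical axes, all in log2 units, and each point is 1 animal with its number. Cpt1a is lower where Cpt1b is higher (r = -0.651), and Cox8b rises with Cpt1b (r = 0.926) in both diets.

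Genes around the pathway did not pass the threshold either. In the list of its regulators, 0 of 22 measured genes passed over all probe sets, and of 7 variable ones 1 was higher and 6 lower, with a median difference of -0.10. Lpin1, a phosphatase and coactivator of fatty acid oxidation genes, differed by -0.17 ± 0.08, and Prkaa2, a catalytic subunit of the energy sensor AMPK, by -0.15 ± 0.12. Esrrg, an estrogen-related receptor, and Nrip1, a corepressor, differed by 0.02 ± 0.01 and -0.05 ± 0.08. Among other oxidation and peroxisome genes, 0 of 32 passed, with 6 of 9 variable ones higher and a median of 0.01. Acat1, the mitochondrial acetoacetyl-CoA thiolase, differed by 0.11 ± 0.10, Abcd4 and Acot2 by -0.01 ± 0.01 and 0.005 ± 0.007, and Pxmp4, a peroxisomal membrane protein, by 0.22 ± 0.75. Pxmp4 stood at 5.59, 5.69 and 5.66 in noodle animal 4 and control animals 5 and 14, and at 7.49 to 8.44 in the other 7.

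Among receptor targets and fuel-switch genes, 0 of 25 passed, with 7 of 14 variable genes higher and 7 lower. Ucp3, a mitochondrial carrier induced with fatty acid oxidation, differed by 0.47 ± 0.12 (limma unadjusted p = 0.00405, adjusted p = 0.971) and lay above every control in 5 of 5 noodle rats. It stood at 7.66, 7.44, 7.93, 7.44 and 7.53 in noodle animals 1, 4, 7, 10 and 13, and at 7.23, 7.20, 7.14, 7.27 and 6.79 in control animals 2, 5, 8, 11 and 14. Its groups did not overlap, and 0.98% of variable genes share that. The fatty acid transporter gene Cd36 differed by 0.04 ± 0.01, G0s2, an inhibitor of lipolysis, by 0.36 ± 0.18 and Txnip, an inhibitor of glucose uptake, by -0.23 ± 0.14.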

How the data were processed

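White adipose tissue RNA of 10 rats (5 per diet) was measured on 1 expression array per animal, from 100 ng of total RNA, per the labels' protocols. The deposited table gives 1 value per probe set, taken as log2 from its range. No source used here gives the authors' software, background correction, summarisation or normalization. The members and lists were chosen with earlier results of these data known. After 57 control probe sets were left out, limma 3.58.1 in R 4.3.3 (lmFit, eBayes, two-sided) compared noodle minus control, with Benjamini-Hochberg adjustment over all 31042 probe sets and a threshold of 0.05. The labels call the samples separate animals, and 5 arrays per group limit the precision. Data were simulated with the real means and spreads and independent normal noise, and changes were added to variable probe sets only. There limma found 78% of 100 probe sets changed by 1 log2 unit and 97% of 100 changed by 2. The largest member difference was 0.25, so the simulation does not give the power for differences of the members' size. Pairs were tested with 100000 resamples (exact with 9 or fewer animals or within diets, two-sided; Python 3.11.15). Values in every animal are given for the 6 mitochondrial and the 4 other variable members with the smallest p and for Cpt1a and Cpt1b. Named pairs are partner pairs with both genes variable and the 5 highest and 5 lowest. Of each companion list the 4 variable genes with the smallest p are named. Gene symbols are those of the platform annotation, and all 32 matched the current RefSeq gene table. Sequences are RefSeq's, build GRCr8. Alternatives were other scalings, filters on dim probe sets, variance priors, array weights, covariates, other probe sets and leaving out each animal. Leaving out noodle animal 4 and control animal 5 together was chosen after seeing the data.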

Additional observations from a re-analysis of the deposited data

Results flagged for a closer look

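In 5 of 44 groups of 5 animals examined, 1 animal stood apart from the other 4 of its diet by Dixon's test. Chance flags about 1 in 20 of independent groups, but these are not independent, because the members varied together over the same animals. Acads was 8.50 in control animal 5, against 8.08 to 8.10 in the other controls. Noodle animal 4 was the low one in the other 4 groups. Echs1 was 10.13 there, against 10.23 to 10.27 in the other noodle animals. Hadha was 9.99 there, against 10.12 to 10.16. Decr1 was 10.61 there, against 10.98 to 11.07. Scp2 was 11.33 there, against 11.64 to 11.70. Its second probe set, not among the 5 flagged groups, was 10.62 there, against 10.88 to 10.96.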

How the results depend on the processing

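No alternative brought a member past the threshold. Over all probe sets 0 passed, except 1 without control animal 14 (range 0 to 1 when single animals were left out). The differences of Acaa2, Cpt1a, Hadh and Phyh kept their sign in all 24 alternatives, and 16 of 20 changed sign in at least 1. With the 3-prime to 5-prime covariate the differences were 0.0445 for Cpt2, 0.0198 for Acads, 0.0168 for Etfb, 0.00821 for Eci2, 0.263 for Ehhadh and 0.0386 for Abcd2. With array weights they were 0.0593 for Cpt2, 0.0204 for Eci2, 0.0253 for Ehhadh and 0.0324 for Hsd17b4. With the hybridization covariate they were -0.130 for Cpt1b, 0.00205 for Cpt2, 0.0217 for Ehhadh and 0.0346 for Hsd17b4, and with averaged probe sets -0.0134 for Scp2. The cause was not tested. Leaving out single animals gave -0.00705 to 0.0913 for Acadl, -0.0569 to 0.102 for Cpt1b, -0.0460 to 0.0550 for Cpt2, -0.0143 to 0.112 for Decr1, -0.00172 to 0.0403 for Echs1, -0.0243 to 0.0148 for Eci2 and -0.119 to 0.115 for Ehhadh. It gave -0.0211 to 0.132 for Etfdh, -0.00646 to 0.0451 for Hadha, -0.0294 to 0.0584 for Hadhb, -0.0492 to 0.0147 for Hsd17b4, -0.00324 to 0.198 for Pex11a and -0.0528 to 0.0915 for Scp2. The median difference ranged from -0.00705 to 0.0584 in mitochondrial and from -0.0510 to 0.0960 in peroxisomal genes, and without both noodle animal 4 and control animal 5 the medians were 0.107 and 0.125. The pairs that passed numbered 3 to 70 without single animals and 2 without those 2 animals, and the correlation of both means, with genes scaled anew in the animals kept, was 0.899 to 0.980 and 0.908. No paired analysis was possible because no label names the partners of the paired feeding, and the groups share no replicate numbers. The number of arrays limits precision.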
